A study of Mus musculus with 12 samples.

Results

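The 10 genes described here are markers of eosinophils, basophils and mast cells, the granulocytes and tissue cells of allergic and antiparasite responses. They are Ccr3, Siglecf, Il5ra, Prg2, Epx, Fcer1a, Ms4a2, Mcpt8, Hdc and Cpa3. They were taken by symbol from a list of such markers, and each matched exactly 1 of the 46603 gene identifiers in the count tables. RNA sequencing had been carried out on mice lacking nuclear myosin 1 (NM1, a nuclear form of the class I myosin Myo1c) and on wild-type mice, to ask what NM1 does in platelet activation and the immune response. The groups were KO blood, WT blood, KO spleen and WT spleen with 3 libraries each. All mice were C57/Bl6 and 8 months old, so the groups differed in genotype and tissue label and shared strain and age. Blood came from the submandibular vein, and the spleen sample was a piece of about 5 mm3 from the tip of the organ. The labels name no Cre line, promoter or pooling and do not say whether each library came from a separate mouse, so p-values measure the spread between these libraries.

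Eosinophils grow and survive under interleukin-5, move toward eotaxins through the receptor CCR3, and store basic proteins and a peroxidase in their granules. Basophils and mast cells carry the high-affinity receptor for immunoglobulin E (IgE), whose crosslinking releases histamine and proteases. Eosinophils and basophils circulate in blood and pass through the spleen as rare cells, whereas mature mast cells reside in tissues. Granule protein genes are transcribed mainly while these cells mature in the bone marrow, and in rodents the spleen also carries out blood cell formation.

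The tissue labels did not hold throughout. Globin took 48.9% to 56.1% of counts in 6 libraries, called globin-rich here, and 0.846% to 5.90% in the other 6, called globin-poor. Each kind held 3 KO and 3 WT libraries. The globin-rich libraries were blood KO 02, blood KO 03, spleen KO 03, blood WT 01, spleen WT 02 and spleen WT 04. The globin-poor libraries were blood KO 04, spleen KO 01, spleen KO 04, blood WT 03, blood WT 04 and spleen WT 01. Vcam1, Spic and Cd5l, which mark the macrophages of the splenic red pulp, had a summed level between 0.731 and 5.38 CPM (counts per M counts, M being 10 to the power 6) in globin-rich libraries and between 295 and 543 CPM in globin-poor ones. Hence 3 libraries labelled blood carried red pulp markers, 3 labelled spleen nearly lacked them, and every library is named below by its label. Myo1c, the gene that encodes NM1, lay between 128 and 200 CPM in the KO libraries and between 58.5 and 219 CPM in the WT libraries, and its gene-level count sums all its forms and checks no genotype. All CPM values leave globin counts out of the total, which held 4.09 to 5.83 M counts in globin-rich libraries and 21.8 to 27.4 M counts in globin-poor ones. A gene with 0 counts could reach 3 counts by chance, which is 0.515 to 0.733 CPM in a globin-rich and 0.109 to 0.138 CPM in a globin-poor library.

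Most of the 10 genes were scarce. Hdc and Il5ra had at least 10 counts in all 12 libraries and Ccr3 in 11. Prg2 and Mcpt8 reached 10 counts in 6 libraries each, Siglecf, Cpa3 and Ms4a2 in 5, Epx in 4 and Fcer1a in none. A filter on low counts over all 12 libraries kept 9 genes and dropped Fcer1a. Summed over the 10 genes, expression lay between 29.9 and 141 CPM in globin-rich libraries and between 32.7 and 81.4 CPM in globin-poor ones, so these markers as a whole did not separate the library kinds. In bulk RNA, fewer cells of a type and less RNA per cell cannot be told apart.

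**Figure D1:**
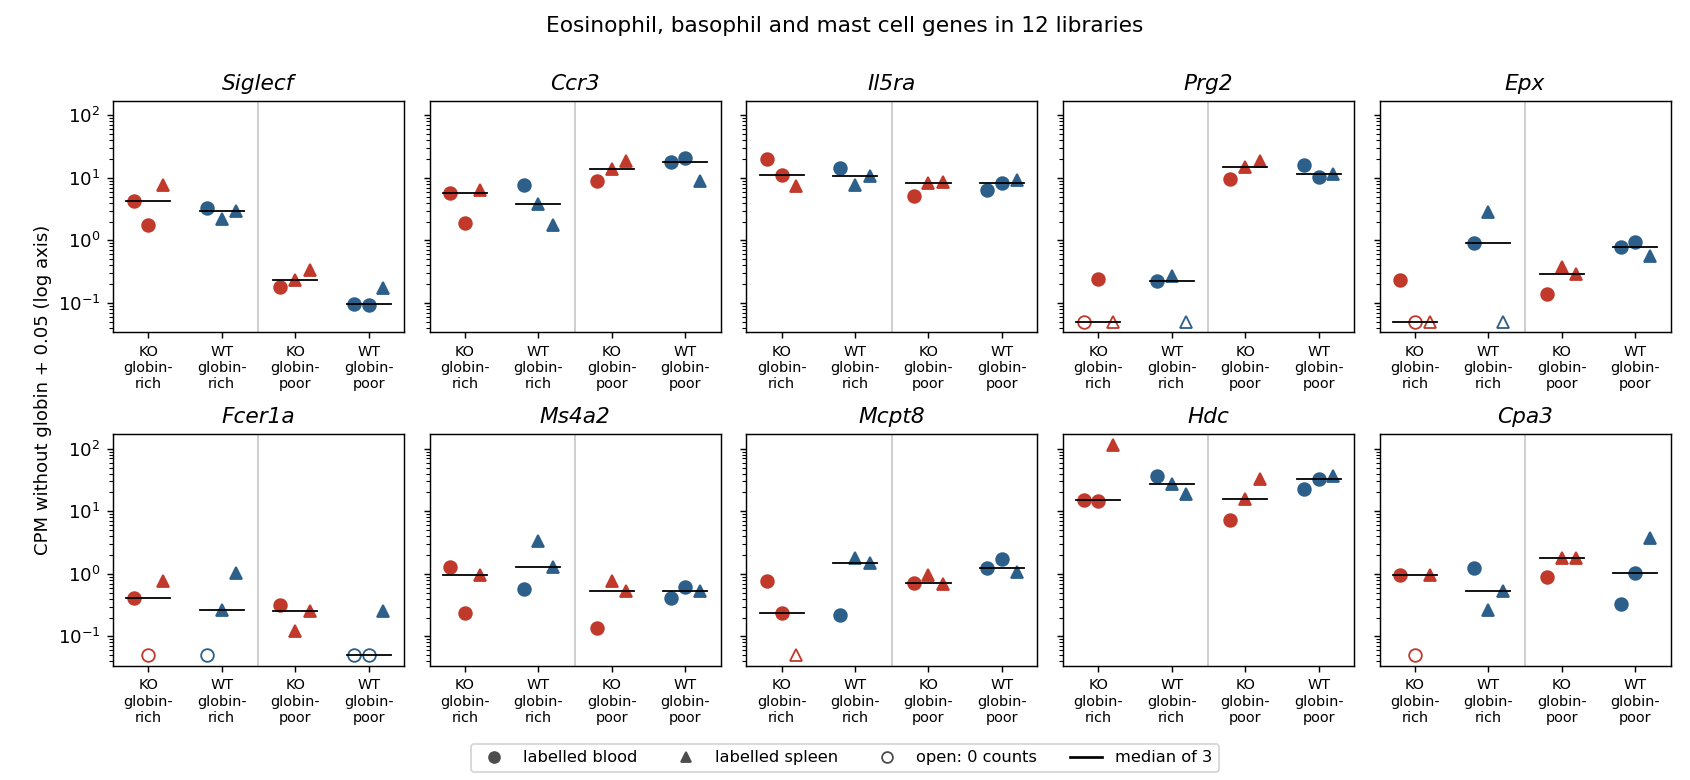
CPM without globin plus 0.05 (log axis) of each of the 10 genes in 12 libraries, grouped by genotype and library kind, with circles for libraries labelled blood, triangles for spleen, open symbols for 0 counts and a line at the median of 3. Siglecf lies between 1.69 and 7.68 CPM in the globin-rich libraries and between 0.0426 and 0.282 CPM in the globin-poor ones, Prg2 lies the other way round, and Hdc reaches 117 CPM in spleen KO 03.

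The eosinophil genes divided between the library kinds in opposite directions. Siglecf was higher in every globin-rich library than in any globin-poor one, whereas Prg2 and Ccr3 were lower in every globin-rich library. The other 7 genes overlapped between the kinds. Over the 16858 genes kept in the 12 libraries, 3.21% were higher and 45.0% lower without overlap in the globin-rich libraries, so the direction of Siglecf was the less common one and that of Prg2 and Ccr3 was a common one. The kinds were defined from the globin counts of these libraries, so these values carry no test. The median gene stood at -1.11 log2 units in globin-rich over globin-poor libraries, and relative to it Siglecf stood at 5.88, Prg2 at -6.02 and Ccr3 at -0.59.

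Siglecf (ENSMUSG00000039013, chromosome 7, 43351341 to 43359531, plus strand, GRCm38) encodes a sialic acid-binding lectin of the eosinophil surface. It had 24, 9 and 42 counts in blood KO 02, blood KO 03 and spleen KO 03, and 19, 10 and 12 counts in blood WT 01, spleen WT 02 and spleen WT 04. These counts equal 4.29, 1.69 and 7.68 CPM in the globin-rich KO and 3.26, 2.18 and 2.93 CPM in the globin-rich WT libraries. The globin-poor libraries, though deeper, had 3, 5 and 7 counts in blood KO 04, spleen KO 01 and spleen KO 04, and 1, 1 and 3 counts in blood WT 03, blood WT 04 and spleen WT 01. Pooled over libraries, 116 counts in globin-rich against 20 in globin-poor libraries gave a ratio of 27.2 (95% exact interval 16.8 to 46.2, counting error only). Siglecf thus had 7 counts or fewer in every library with red pulp markers, under either tissue label.

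Ccr3 (ENSMUSG00000035448, chromosome 9, 124021972 to 124031689, plus strand) encodes the eotaxin receptor, which basophils carry too. It stood at 5.72, 1.88 and 6.40 CPM in globin-rich KO and at 7.55, 3.70 and 1.71 CPM in globin-rich WT libraries. In the globin-poor libraries it stood at 8.76, 13.6 and 18.2 CPM in KO and at 17.8, 20.5 and 8.77 CPM in WT. The highest globin-rich value, 7.55 CPM in blood WT 01, lay close under the lowest globin-poor value, 8.76 CPM in blood KO 04. Means were 4.49 ± 2.44 CPM in globin-rich and 14.6 ± 5.05 CPM in globin-poor libraries (SD, n = 6 each). With CPM scaled by the trimmed mean of M-values (TMM) the kinds overlapped for Ccr3.

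Il5ra (ENSMUSG00000005364, chromosome 6, 106710357 to 106749037, minus strand) encodes the alpha chain of the interleukin-5 receptor and in mice is also used by B-1 cells. It stood at 19.7, 10.9 and 7.50 CPM in globin-rich KO and at 14.1, 7.62 and 10.5 CPM in globin-rich WT libraries. In globin-poor libraries it stood at 5.02, 8.35 and 8.39 CPM in KO and at 6.43, 8.36 and 9.05 CPM in WT. Il5ra values were even among the globin-poor libraries and spread most among the globin-rich ones, where blood KO 02 was highest. Means were 11.7 ± 4.59 CPM in globin-rich and 7.60 ± 1.54 CPM in globin-poor libraries (SD, n = 6 each), with overlap. The sign of this difference depends on the scaling. Log2 of globin-rich over globin-poor was 0.62 without globin and 1.64 with TMM, where the kinds no longer overlapped. With globin left in the total it was -0.39. Relative to the median gene of each scaling, Il5ra stood at 1.73, 1.74 and 1.74 in that order. B cell markers, of which Il5ra is not one here, had sums between 899 and 2306 CPM in globin-rich libraries and between 2223 and 4176 CPM in globin-poor ones, and their part in the Il5ra values was not tested.

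The start regions of these eosinophil genes are shown because Siglecf and Ccr3 separated the library kinds in opposite directions in CPM without globin. Il5ra did not separate the kinds on that scale. With TMM scaling the kinds overlapped for Ccr3 and not for Il5ra. Each line gives the 250 bases before the RefSeq gene start (GRCm38.p6), read 5′ to 3′ on the gene's strand. Capitals mark the letters GATAA or their reverse complement TTATC, the core recognised by GATA factors, which drive eosinophil, basophil and mast cell fates. The regions lie at chr7:43351091-43351340 on the plus strand for Siglecf, chr9:124021721-124021970 on the plus strand for Ccr3, chr6:106749038-106749287 on the minus strand for Il5ra and chr2:84987965-84988214 on the plus strand for Prg3, the neighbour and relative of Prg2. Prg2 was not in the RefSeq promoter table.
Siglecf: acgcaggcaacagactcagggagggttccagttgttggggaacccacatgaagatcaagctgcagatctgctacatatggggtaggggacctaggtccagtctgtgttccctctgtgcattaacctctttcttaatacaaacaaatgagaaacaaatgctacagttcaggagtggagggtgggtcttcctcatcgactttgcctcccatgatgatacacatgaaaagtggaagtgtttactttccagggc
Ccr3: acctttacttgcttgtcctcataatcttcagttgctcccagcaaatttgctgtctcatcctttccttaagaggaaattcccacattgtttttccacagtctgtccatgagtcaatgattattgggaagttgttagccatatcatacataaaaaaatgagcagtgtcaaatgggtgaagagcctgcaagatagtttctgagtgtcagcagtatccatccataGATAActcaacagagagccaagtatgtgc
Il5ra: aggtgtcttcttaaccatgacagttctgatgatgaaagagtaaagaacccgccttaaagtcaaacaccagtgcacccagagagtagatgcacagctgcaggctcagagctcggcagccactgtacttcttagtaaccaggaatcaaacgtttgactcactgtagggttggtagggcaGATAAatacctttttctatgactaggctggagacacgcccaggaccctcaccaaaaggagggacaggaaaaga
Prg3: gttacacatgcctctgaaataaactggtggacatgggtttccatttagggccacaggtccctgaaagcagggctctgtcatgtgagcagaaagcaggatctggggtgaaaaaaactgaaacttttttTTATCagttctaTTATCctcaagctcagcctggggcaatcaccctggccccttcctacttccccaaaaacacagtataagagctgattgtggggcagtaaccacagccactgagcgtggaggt
The Ccr3 match begins 29 bases and the Il5ra match 73 bases before the start, both on the gene's strand. The Prg3 matches lie 123 and 111 bases before the start on the opposite strand, and the Siglecf window holds none of these letters. Of the 9 genes with an entry, 5 hold GATAA on either strand (Ccr3, Il5ra, Fcer1a, Ms4a2 and Cpa3), against 22.6% of 32851 promoters of the same length. The letters GAGGAA, in which the ETS factor PU.1 finds its core, occur in 4 of the 9 (Ccr3, Siglecf, Fcer1a and Mcpt8), against 23.3% of promoters. A match is a stretch of letters and not a measured site, and the 2 motifs do not overlap in any window printed here.

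The granule protein genes of eosinophils did not move together. Prg2 (ENSMUSG00000027073, chromosome 2, 84980461 to 84983632, plus strand) encodes major basic protein, a main protein of the eosinophil granule. It had 0, 1 and 0 counts in the globin-rich KO libraries blood KO 02, blood KO 03 and spleen KO 03, and 1, 1 and 0 counts in the globin-rich WT libraries blood WT 01, spleen WT 02 and spleen WT 04. In the globin-poor libraries it had 9.60, 14.9 and 18.8 CPM in KO and 16.2, 10.1 and 11.5 CPM in WT. Pooled counts were 3 in globin-rich and 1969 in globin-poor libraries, a ratio of globin-poor over globin-rich of 140 (95% exact interval 47.8 to 678, counting error only). The gene was at the floor in all globin-rich libraries and evenly present in all globin-poor ones, including the 3 labelled blood.

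Epx (ENSMUSG00000052234, chromosome 11, 87864000 to 87875536, minus strand), which encodes eosinophil peroxidase, did not follow Prg2. Its counts were 1, 0 and 0 in the globin-rich KO libraries and 5, 13 and 0 in the globin-rich WT libraries. In globin-poor libraries there were 2, 9 and 6 counts in KO (0.0881, 0.328 and 0.242 CPM) and 16, 21 and 13 counts in WT (0.735, 0.896 and 0.521 CPM). The largest KO value in any library was thus 0.328 CPM, and 5 of the 6 WT libraries lay above it. Per kilobase of exon, Prg2 averaged 16.1 CPM and Epx 0.171 CPM in globin-poor libraries; Prg2 was the highest of the 10 genes there.

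Of the 13 other eosinophil genes, Prg3 and the eotaxin genes Ccl11 and Ccl24 were lower in every globin-rich library and 10 overlapped, where 45.0% of all genes were lower without overlap. Prg3, a relative of Prg2 on chromosome 2 next to it, had 1 count in the 6 globin-rich libraries, in spleen KO 03, and between 6.25 and 13.5 CPM in each globin-poor library. How reads shared by such related genes were counted is not given in the sources used here. The eosinophil ribonuclease genes Ear1 and Ear6 stayed at or under 0.244 and 0.172 CPM in globin-rich libraries, and at or under 0.643 and 0.505 CPM in globin-poor ones. Markers of myeloid and stem cell progenitors, which transcribe Prg2 and Epx as well, had sums between 12.2 and 20.9 CPM in globin-rich libraries and between 119 and 198 CPM in globin-poor ones, with 9 of 10 lower without overlap, where 45.0% of all genes were. The part of such cells in the Prg2 values was not tested.

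The IgE receptor and basophil genes were low in both kinds. Fcer1a (ENSMUSG00000005339, chromosome 1, 173221284 to 173227214, minus strand), the IgE-binding alpha chain of the receptor, had 2, 0 and 4 counts in globin-rich KO, 0, 1 and 4 in globin-rich WT, 6, 2 and 5 in globin-poor KO and 0, 0 and 5 in globin-poor WT libraries. It was never above 0.977 CPM, and 4 of the 12 libraries had 0 counts, so no order among them can be read. Ms4a2 (ENSMUSG00000024680, chromosome 19, 11615523 to 11623719, minus strand), the beta chain that amplifies its signal, stood at 1.25, 0.188 and 0.914 CPM in globin-rich KO and at 0.515, 3.26 and 1.22 CPM in globin-rich WT libraries, from 7, 1, 5, 3, 15 and 5 counts. In globin-poor libraries it stood at 0.0881, 0.730 and 0.484 CPM in KO and at 0.367, 0.554 and 0.481 CPM in WT, from 2, 20, 12, 8, 13 and 12 counts. The kinds overlapped, and spleen WT 02 was the highest library.

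Mcpt8 (ENSMUSG00000022157, chromosome 14, 56082166 to 56085273, minus strand), a serine protease that marks mouse basophils, stood at 0.715, 0.188 and 0 CPM in globin-rich KO and at 0.172, 1.74 and 1.47 CPM in globin-rich WT libraries, from 4, 1, 0, 1, 8 and 6 counts. In globin-poor libraries it stood at 0.661, 0.912 and 0.645 CPM in KO and at 1.19, 1.71 and 1.00 CPM in WT, from 15 to 40 counts. In these 6 libraries the KO values lay below all WT values, where 1.29% of all genes kept were lower in KO without overlap. Other basophil genes overlapped between the kinds in 8 of 12 cases, with 3 lower and 1 higher in every globin-rich library, where 45.0% of all genes were lower and 3.21% higher. Il3ra (the interleukin-3 receptor chain), Il1rl1 (the interleukin-33 receptor) and Ltc4s (leukotriene C4 synthase) were lower and Il18rap was higher in every globin-rich library. The genes of IgE receptor and interleukin-5 receptor signalling, such as Fcer1g, the gamma chain shared by several receptors for antibodies, overlapped in 12 of 12 cases.

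Hdc (ENSMUSG00000027360, chromosome 2, 126593667 to 126619299, minus strand) makes histamine from histidine in basophils and mast cells, and neutrophils use it as well. It stood at 15.2, 14.8 and 117 CPM in the globin-rich KO libraries blood KO 02, blood KO 03 and spleen KO 03, and at 36.0, 27.2 and 19.1 CPM in the globin-rich WT libraries. In globin-poor libraries it stood at 7.22, 15.8 and 32.4 CPM in KO and at 22.9, 33.4 and 36.8 CPM in WT. Spleen KO 03 stood apart at more than 3 times the next library. Globin-rich libraries averaged 38.2 ± 39.4 CPM (SD, n = 6), or 22.5 ± 9.07 CPM without spleen KO 03 (n = 5), against 24.7 ± 11.6 CPM in globin-poor libraries (n = 6), with overlap either way. With globin left in the total, log2 of globin-rich over globin-poor turned to -0.43. Relative to the median gene of each scaling, Hdc stood at 1.74 without globin, 1.72 with TMM and 1.70 with globin left in. These values include spleen KO 03.

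Neutrophil markers moved with Hdc in that library. The 12 markers summed to 5130 CPM in spleen KO 03 and to between 546 and 1693 CPM in the other 11 libraries. Hdc per 1000 CPM of neutrophil markers was 22.8 in spleen KO 03, within the range of 13.2 to 53.1 over all libraries. That library had 4 counts of Fcer1a, 5 of Ms4a2, 0 of Mcpt8 and 5 of Cpa3, and for none of these was it the highest globin-rich library in CPM. The other basophil and other eosinophil genes did have their highest globin-rich sums there. They reached 176 CPM against 86.2 to 126 CPM, and 391 CPM against 150.2 to 242 CPM, in the other 5. However, Prg3, Ear1, Ear6, Prss34 and Cd200r3 were near the floor in spleen KO 03, and 5 of the 13 other eosinophil genes had 0 counts. Those sums came mostly from the remaining genes of the lists. The part of neutrophil, basophil or eosinophil genes in the Hdc value was not tested.

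**Figure D2:**
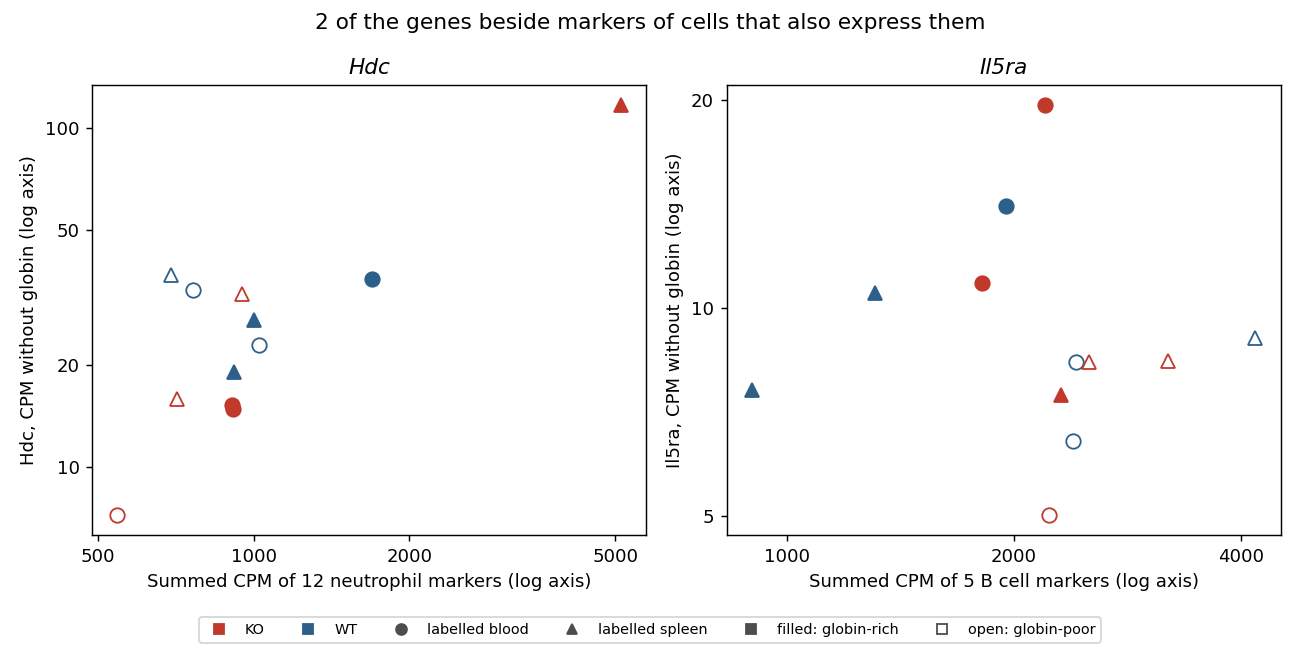
Hdc against the summed CPM of 12 neutrophil markers (left) and Il5ra against that of 5 B cell markers (right), 1 point per library on log axes, with colour for genotype, shape for the tissue label and fill for the library kind. Spleen KO 03 lies alone at 5130 CPM of neutrophil markers and 117 CPM of Hdc. Among the globin-poor libraries Il5ra is lowest, 5.02 CPM, at the lowest B cell sum and highest, 9.05 CPM, at the highest. Among the globin-rich libraries Il5ra is lowest, 7.50 CPM, at the highest B cell sum, 2306 CPM in spleen KO 03.

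Cpa3 (ENSMUSG00000001865, chromosome 3, 20215620 to 20242181, minus strand), the carboxypeptidase of mast cell granules that basophils and progenitors also transcribe, stood at 0.894, 0 and 0.914 CPM in globin-rich KO and at 1.20, 0.218 and 0.489 CPM in globin-rich WT libraries, from 5, 0, 5, 7, 1 and 2 counts. In globin-poor libraries it stood at 0.837, 1.75 and 1.73 CPM in KO and at 0.276, 0.981 and 3.73 CPM in WT, from 19, 48, 43, 6, 23 and 93 counts. Spleen WT 01 was highest. Of 14 other mast cell genes, 6 were lower in every globin-rich library and 8 overlapped, a share near the 45.0% of all genes that were lower. The receptor gene Kit stood between 0.376 and 4.98 CPM in globin-rich libraries and between 36.1 and 40.5 CPM in globin-poor ones. Progenitor marker sums rose between the same libraries, from 12.2 to 20.9 CPM in globin-rich to 119 to 198 CPM in globin-poor ones. The part of progenitors in the Kit values was not tested. The tryptase gene Tpsb2 had 0 counts in all 6 globin-rich libraries and between 0.505 and 4.61 CPM in the globin-poor ones, and the chymase-type protease Mcpt4 had at most 1 count against 0.459 to 3.97 CPM.

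**Figure D3:**
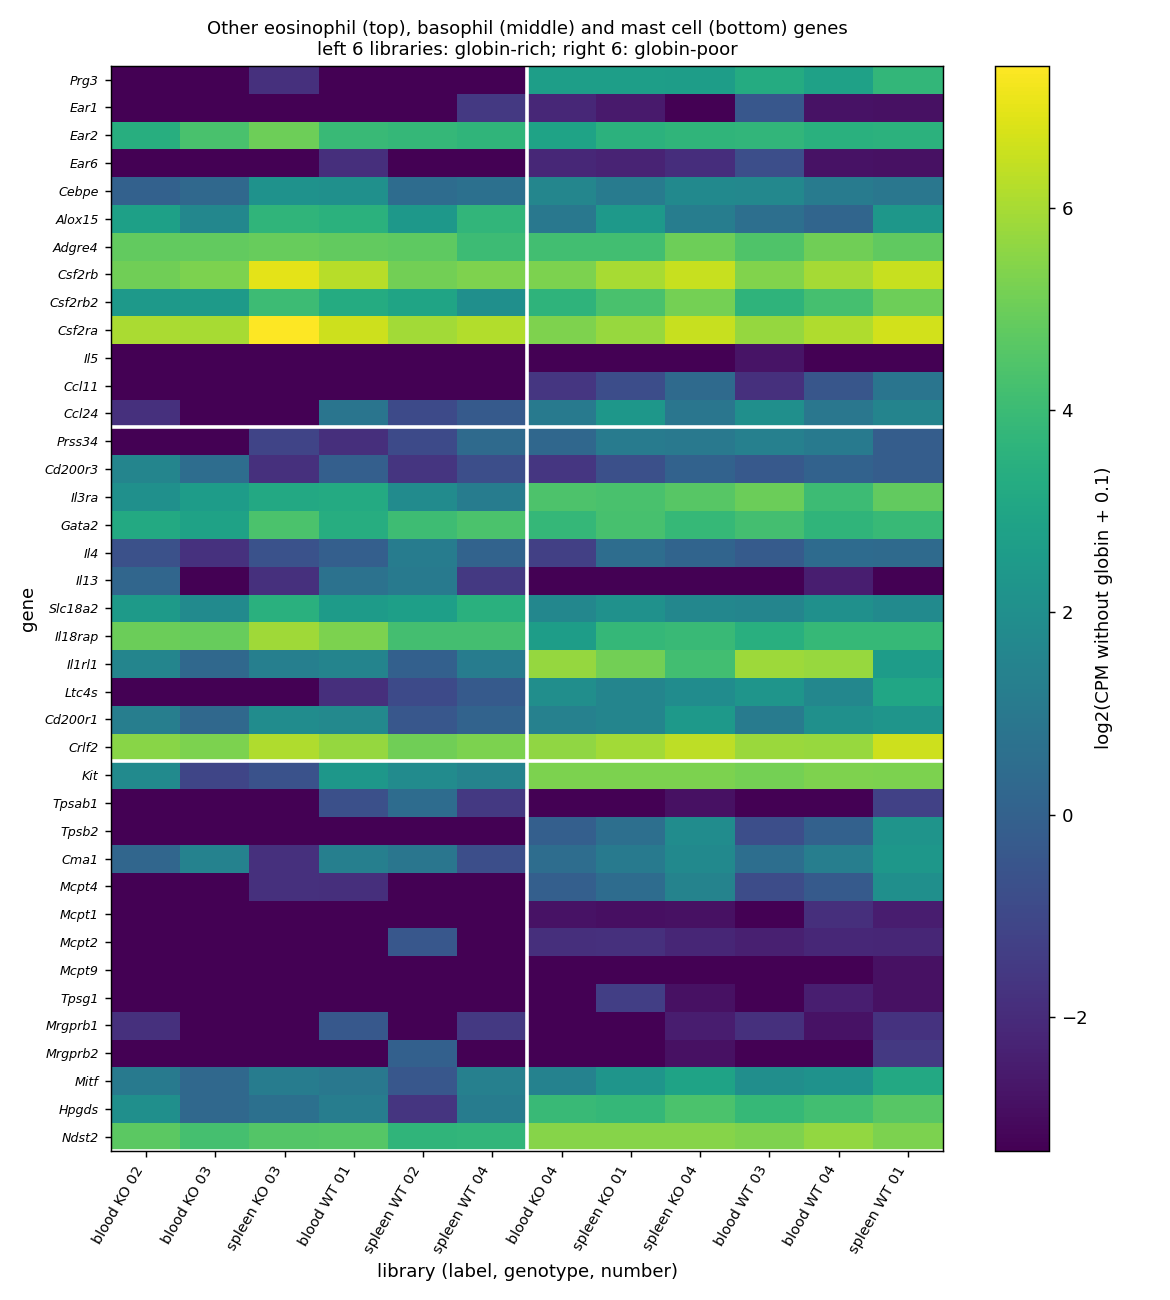
Heat map of log2(CPM without globin + 0.1) of 13 other eosinophil, 12 other basophil and 14 other mast cell genes (rows) in 12 libraries (columns), with globin-rich libraries left and globin-poor libraries right, KO before WT within each. Prg3, Kit, Tpsb2 and Mcpt4 are dark on the left and lighter on the right, while Il18rap is lighter on the left.

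Per kilobase of exon, which allows genes to be compared, the order differed between the kinds. In globin-rich libraries Hdc (5.98 CPM per kb) and Il5ra (3.28) led, followed by Ccr3 (1.37) and Siglecf (1.32), which lay side by side, and Prg2 was lowest at 0.115. In globin-poor libraries Prg2 (16.1) led, followed by Ccr3 (4.47) and Hdc (3.87), and Siglecf was lowest at 0.0481. The order of Ccr3 and Hdc in the globin-poor libraries is within the spread of their libraries.

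**Figure D4:**
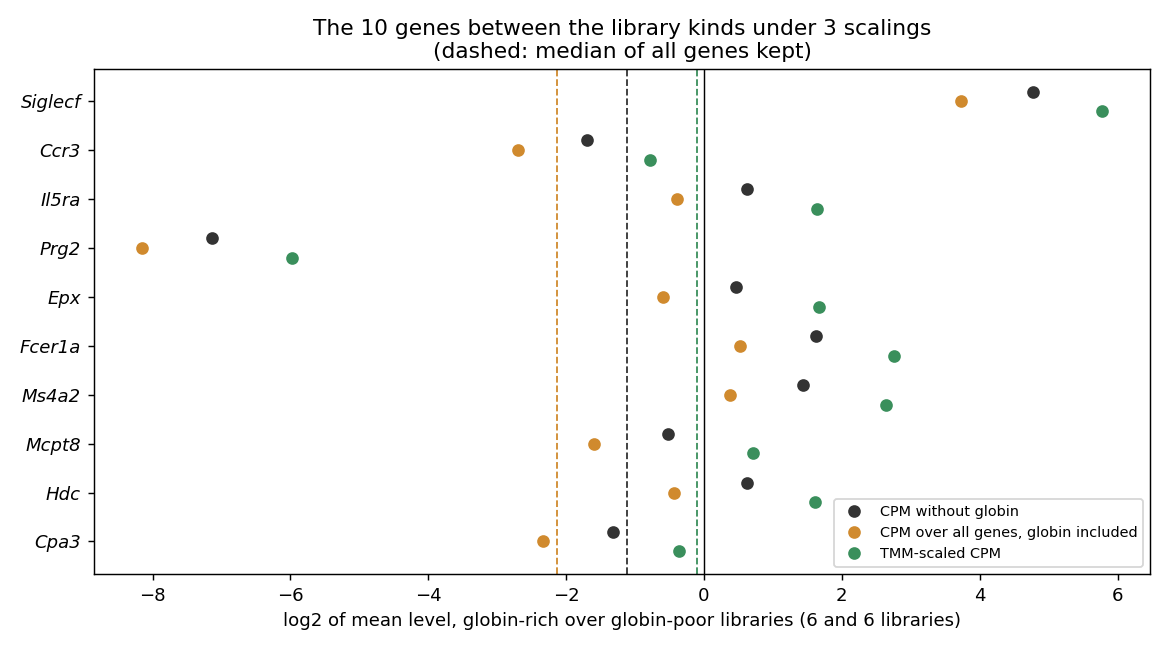
Log2 of the mean level in the 6 globin-rich over the 6 globin-poor libraries for each of the 10 genes under 3 scalings, with a dashed line at the median of all genes kept for each scaling. Siglecf lies right of 0 and Prg2 and Ccr3 lie left of it under all 3, while Il5ra, Hdc, Epx and Mcpt8 lie on both sides.

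KO was compared with WT among the libraries labelled blood, of which blood KO 04, WT 03 and WT 04 carried red pulp markers. None of the 10 genes was called, and KO stood below WT without overlap for Hdc and Epx. Hdc had 15.2, 14.8 and 7.22 CPM in KO blood 02, 03 and 04, and 36.0, 22.9 and 33.4 CPM in WT blood 01, 03 and 04. The means were 12.4 ± 4.50 CPM in KO and 30.8 ± 6.93 CPM in WT blood (SD, n = 3 each). Epx had 1, 0 and 2 counts in KO and 5, 16 and 21 counts in WT blood, which gave means of 0.0890 ± 0.0894 and 0.829 ± 0.0841 CPM in KO and WT. Over 16858 genes, 3.68% were lower in KO blood without overlap and 0.154% higher.

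edgeR's quasi-likelihood test called 0% of 14939 genes in blood, 24 genes having an unadjusted p under 0.05, and DESeq2 also called 0, with 54. Of the 7 genes of interest that passed its filter, 2 lay above 0 and 5 below, with a median log2 fold change of -0.52 where all genes had -0.05. Ccr3 averaged 5.46 ± 3.45 CPM in KO and 15.3 ± 6.84 CPM in WT blood, with a log2 fold change of -1.12 ± 0.45 (SE; edgeR adjusted p = 1). Hdc stood at -0.79 ± 0.62 and Il5ra at 0.75 ± 0.79, both with an adjusted p of 1. KO blood held 2 globin-rich libraries and WT blood 1. With library kind as a term Hdc stood at -1.44 ± 0.29 (unadjusted p = 0.000185, edgeR adjusted p = 1), Ccr3 at -0.94 ± 0.37 and Il5ra at -0.08 ± 0.33. Only the globin-rich blood libraries, 2 KO against 1 WT, matched their label, and there Hdc stood at -1.05 ± 0.34, with an adjusted p of 1 and the lone WT library assumed to vary like the others.

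Neutrophil markers stood beside Hdc in blood too. Their sums were 910, 914 and 546 CPM in KO and 1693, 1026 and 765 CPM in WT blood, which overlap. Hdc per 1000 CPM of these markers was 16.7, 16.2 and 13.2 in KO and 21.3, 22.3 and 43.6 in WT blood, without overlap. Their part in the Hdc difference was not tested.

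In libraries labelled spleen the genotype comparison likewise called none of the 10 genes. KO stood below WT without overlap for Mcpt8 alone, with 0.912, 0 and 0.645 CPM in KO spleen 01, 03 and 04 and 1.00, 1.74 and 1.47 CPM in WT spleen 01, 02 and 04. The WT values came from 25, 8 and 6 counts and the 0 in KO spleen 03 allows up to 0.548 CPM. Olfactory receptor genes, silent in most cells outside the nose, summed to 8.04 CPM in KO spleen 03 and to 112 and 100.2 CPM in WT spleen 02 and 04, and the part of such scattered counts in the Mcpt8 values was not tested. Over all genes kept, 1.38% were higher and 2.10% lower in KO spleen without overlap. Ccr3 averaged 12.7 ± 5.96 CPM in KO and 4.73 ± 3.64 CPM in WT spleen (SD, n = 3 each), the opposite order to blood, and Hdc averaged 55.1 ± 54.3 CPM in KO, or 24.1 without KO 03, against 27.7 ± 8.89 CPM in WT spleen.

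edgeR called 0% of 15362 genes in spleen. An unadjusted p under 0.05 was reached by 370 genes, and by 698 with DESeq2, which called 0 as well. Of the 7 genes of interest tested, 3 lay above 0 and 4 below, with a median of -0.06 where all genes had 0.02. Mcpt8 stood at -2.45 ± 1.08 (edgeR adjusted p = 0.989), Il5ra at -1.04 ± 0.56 and Ccr3 at 0.78 ± 0.46, both with the same adjusted p. Here KO held 1 globin-rich library and WT 2. With library kind as a term the values were -1.88 ± 1.36 for Mcpt8, -0.48 ± 0.40 for Il5ra and 0.74 ± 0.46 for Ccr3. Only the globin-poor spleen libraries, 2 KO against 1 WT, matched their label. In them Mcpt8 stood at -0.27 ± 0.82, Il5ra at -0.04 ± 0.41 and Ccr3 at 0.92 ± 0.40. The lone WT library was assumed to vary like the others.

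The difference between those genotype effects was tested over all 12 libraries as spleen minus blood. Of 16858 genes edgeR called 0%, and 171 genes had an unadjusted p under 0.05; DESeq2 called 0, and 510 had one. Ccr3 had the smallest p of the 9 genes of interest tested, with a difference of 2.07 ± 0.62 on the log2 scale (unadjusted p = 0.00661, edgeR adjusted p = 0.931). It was 1.79 ± 0.56 with library kind as a term. Ccr3 ranged between 6.40 and 18.2 CPM in KO spleen and between 1.71 and 8.77 CPM in WT spleen. In blood it ranged between 1.88 and 8.76 CPM in KO and between 7.55 and 20.5 CPM in WT, so the genotypes overlapped under both labels.

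**Figure D5:**
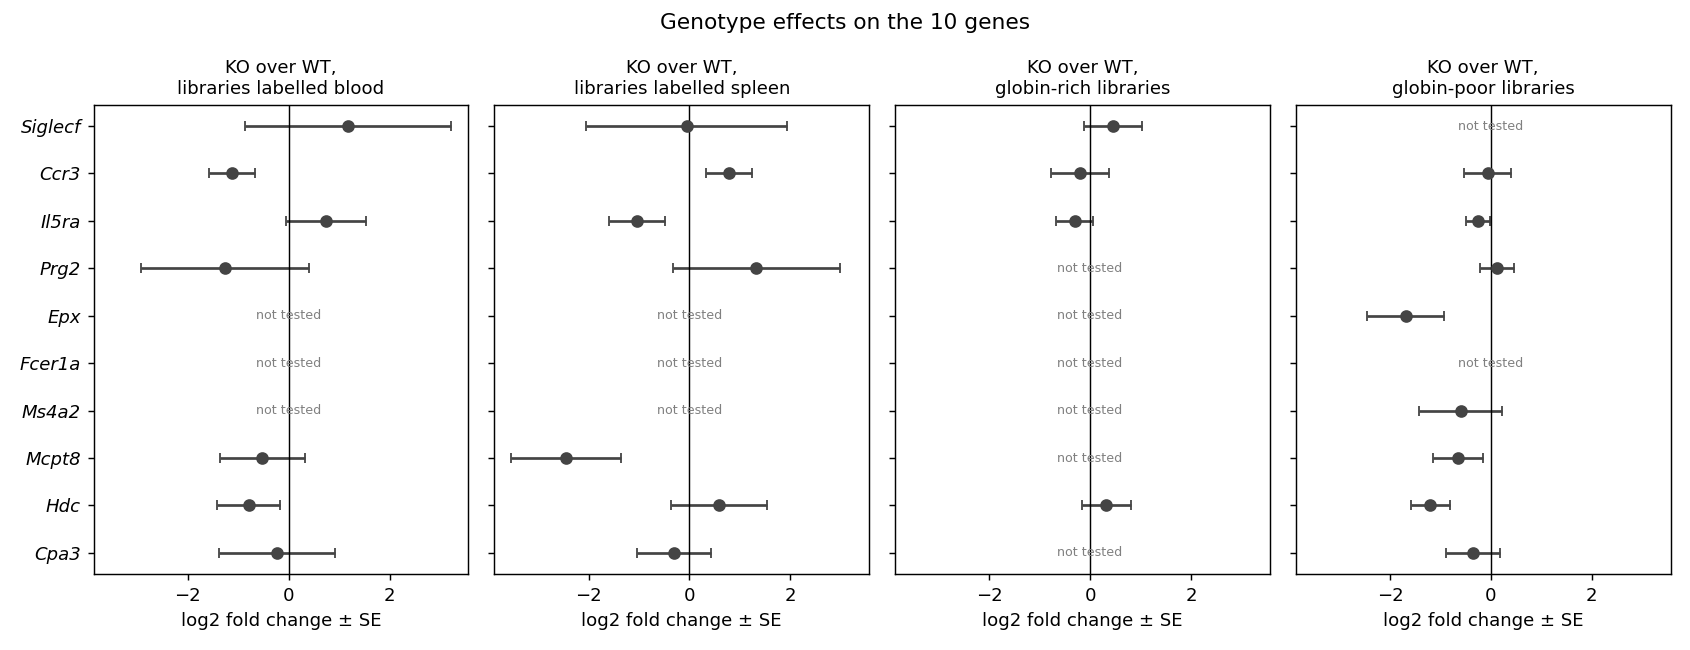
Log2 fold change of KO over WT ± SE for each of the 10 genes that passed the filter, by edgeR, in libraries labelled blood, libraries labelled spleen, globin-rich libraries and globin-poor libraries. Ccr3 lies at -1.12 in blood and 0.78 in spleen, and at -0.20 and -0.06 within the library kinds, and no point was called.

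Within the library kinds, genotype was compared with the tissue label as a further term. In the globin-rich libraries none of the 10 genes separated KO from WT. Over all genes kept, 6.70% were higher and 5.68% lower in KO without overlap. Olfactory receptor genes summed to 129, 7.89 and 8.04 CPM in blood KO 02, blood KO 03 and spleen KO 03. They summed to 144, 112 and 100.2 CPM in blood WT 01, spleen WT 02 and spleen WT 04. The part of such scattered counts in this comparison was not tested. Of the 4 genes of interest tested, Siglecf stood at 0.45 ± 0.57 and Hdc at 0.32 ± 0.49 on the log2 scale, and Il5ra at -0.31 ± 0.36, with edgeR adjusted p-values of 0.815, 0.846 and 0.804. Of 12962 genes edgeR called 0%, while 923 had an unadjusted p under 0.05, and DESeq2 called 11. The Hdc value rested on single libraries: it was 1.64 with an edgeR adjusted p of 0.00324 without blood WT 01, and -1.06 with an adjusted p of 1 without spleen KO 03.

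In the globin-poor libraries 3 of the 10 genes separated the genotypes. Siglecf was higher in KO, with 3, 5 and 7 counts in KO and 1, 1 and 3 counts in WT libraries, which are too few to rank. Epx and Mcpt8 were lower in KO, with means of 0.219 ± 0.122 CPM in KO and 0.717 ± 0.188 CPM in WT for Epx, and 0.739 ± 0.150 CPM in KO and 1.30 ± 0.364 CPM in WT for Mcpt8 (SD, n = 3 each). Over all genes kept, 2.21% were higher and 1.29% lower in KO without overlap. The Epx counts there include those of blood KO 04, WT 03 and WT 04, which the blood comparison also used.

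Of the 8 genes of interest tested in globin-poor libraries, 1 lay above 0 and 7 below, with a median log2 fold change of -0.47 where all genes had -0.0008. Hdc averaged 18.5 ± 12.8 CPM in KO and 31.0 ± 7.24 CPM in WT libraries, with a log2 fold change of -1.20 ± 0.39 (unadjusted p = 0.018, edgeR adjusted p = 0.747). Epx stood at -1.69 ± 0.76 with an adjusted p of 0.747 and Mcpt8 at -0.65 ± 0.49 with an adjusted p of 0.759. Without blood KO 04, the lowest library for Hdc and Epx, they stood at -0.55, -0.76 and -0.26. Of 17098 genes edgeR called 0%, while 775 had an unadjusted p under 0.05, and DESeq2 called 9.

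Blood-labelled and spleen-labelled libraries were also compared within each kind, with genotype as a further term. Among the globin-rich libraries Il5ra was higher under the blood label without overlap, with 19.7, 10.9 and 14.1 CPM in blood KO 02, blood KO 03 and blood WT 01 and 7.50, 7.62 and 10.5 CPM in spleen KO 03, spleen WT 02 and spleen WT 04. Over all genes kept, 6.74% were higher and 3.29% lower under the blood label without overlap. Its log2 difference was 0.61 ± 0.37 (edgeR adjusted p = 0.611), that of Siglecf -0.74 ± 0.57 (0.716) and that of Hdc -1.37 ± 0.50 (0.343). For Hdc it was -2.71 with an edgeR adjusted p of 1.32e-06 without blood WT 01 and -0.0021 without spleen KO 03. edgeR called 0.00771% of 12962 genes, none of them among the 10, although 1392 had an unadjusted p under 0.05, and DESeq2 called 221, also none of the 10.

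Among the globin-poor libraries Cpa3 was lower under the blood label without overlap, with 0.837, 0.276 and 0.981 CPM in blood KO 04, blood WT 03 and blood WT 04 and 1.75, 1.73 and 3.73 CPM in spleen KO 01, spleen KO 04 and spleen WT 01. Of all genes kept, 8.99% were higher and 24.6% lower there without overlap, so Cpa3 shared its direction with many genes. Its log2 difference was -1.58 ± 0.54 (edgeR adjusted p = 0.111), and -0.79 without spleen WT 01. Hdc stood at -0.77 ± 0.39 and Ms4a2 at -0.86 ± 0.83, with edgeR adjusted p-values of 0.227 and 0.501. Of the 14 other mast cell genes, Tpsb2, Mcpt4 and Mitf, a transcription factor of mast cells, were also lower under the blood label without overlap, and Tpsb2 stood at -1.90 ± 0.49 with an edgeR adjusted p of 0.0728. edgeR called 0.0292% of 17098 genes, none of them among the 10, and DESeq2 called 2840, also none of the 10.

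The other genes of these pathways showed the same lack of calls. Of the other eosinophil, basophil and mast cell genes and of the 12 IgE and interleukin-5 receptor signalling genes, none was called by edgeR in any of the 7 comparisons. In blood, 9 of the 13 other eosinophil genes were tested, with 3 above 0 and 6 below and a median of -0.29, and 10 of the 12 other basophil genes, with 4 above and 6 below and a median of -0.18. Of the signalling genes in blood 10 lay above 0 and 2 below in the TMM-scaled fit, with a median of 0.26. In CPM without globin, 3 of the 12 (Fcer1g, Inpp5d and Stat5b) were lower in KO blood without overlap and 0 were higher. Over all genes kept, 3.68% were lower and 0.154% higher. In spleen the medians of the eosinophil, basophil and signalling genes were -0.11, -0.15 and -0.16. Of the signalling genes in globin-poor libraries 1 lay above 0 and 11 below. In globin-poor libraries Prg3 had the smallest p of the other eosinophil genes, with a log2 fold change of KO over WT of -0.67 ± 0.28 (edgeR adjusted p = 0.747). Its 3 KO values of 6.25 to 6.39 CPM lay below the WT values of 6.91 to 13.5 CPM. It was the only 1 of the 13 to do so, where 1.29% of all genes kept did.

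Genes whose levels ran most like those of a given member across the 12 libraries, after the mean of each kind was taken off, were Rad52 (r = 0.924) and Mphosph9 (r = 0.901) for Ccr3. For Hdc they were Cd300ld (r = 0.968) and Igsf6 (r = 0.952), and for Il5ra Dhdh (r = 0.951) and Disp1 (r = 0.934). These are the highest of 10812 genes over 12 points that share library depth and cell makeup, so they describe these libraries only.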

How the data were processed

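The data are 12 mouse RNA-seq libraries, each prepared from 500 ng of total RNA with a NEBNext Ultra II kit. Each library has 1 deposited table of raw read counts per gene. Per the submitters' processing notes, the tools were HISAT2 2.0.4, HTSeq, Trimmomatic 0.36, SAMtools 0.1.19 and FastQC, and the named builds were mm10 and GRCm38. The annotation release, the strand setting and the treatment of reads shared by several genes are not given in the sources used here. Without a strand setting, reads of a gene and of one on the opposite strand cannot be told apart, but of the 10 genes only Mcpt8 and Cpa3 overlap another annotated gene, a microRNA gene in each case.

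Symbols and positions came from GENCODE vM21 (GRCm38), which named 46005 of 46603 identifiers. Promoter windows came from the RefSeq table of GRCm38.p6. CPM were computed without the globin genes. Total counts were 9.32 to 12.1 M (M, 10 to the power 6) in globin-rich libraries (over 25% globin) and 23.1 to 28.2 M in globin-poor libraries. Counts carry 95% exact Poisson intervals, and a count of 0 allows up to 3 counts; PCR copies without molecular identifiers are not independent molecules, so these cover counting error only. No pair of libraries was a duplicate (smallest chi-square per degree of freedom 7.17).

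Genotype and label effects were fitted over all genes kept by filterByExpr with TMM scaling and edgeR 4.0.16's robust quasi-likelihood F test in R 4.3.3. Genes were called at a Benjamini-Hochberg adjusted p under 0.05. The fits were tested on simulated data with the same dispersion for every gene and no mixture of library kinds within a group. The real groups by label hold both kinds, which that test does not cover. Library kinds were defined from these data. DESeq2 1.42.0, another normalization, no filter, a kind term, leaving out each library and a replicate block were tried. A fit of label-matching libraries alone was added after seeing the data. Fold changes are given for called genes and otherwise for the 3 tested genes with the smallest p in a comparison, 1 for the interaction; of other pathway genes, the 1 with the smallest p or a list's defining markers were named. The lists also covered neutrophil, progenitor, red pulp macrophage, B cell, T cell, platelet, monocyte and dendritic cell and globin genes, and edgeR called no gene of any of them. The 10 genes and the lists were chosen with earlier results of these data known. Python 3.11.15, pandas 2.3.3, scipy 1.17.1 and matplotlib 3.10.9 made tables and plots.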

Additional observations from a re-analysis of the deposited data

Results flagged for a closer look

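In each library kind, the highest and lowest of 6 libraries were set against the others for each of the 10 genes. For normally distributed values chance would flag about 1 in 20 such groups. Skewed CPM from low counts can be flagged more often. Of the 20 groups 3 were flagged, all in globin-rich libraries, and whether this exceeds chance was not tested. Hdc in spleen KO 03 stood at 117 CPM, where the next library had 36.0 CPM, and the neutrophil markers of that library stood at 5130 CPM. Epx in spleen WT 02 stood at 2.83 CPM (13 counts), where the next library had 0.858 CPM. Ms4a2 in spleen WT 02 stood at 3.26 CPM (15 counts), where the next had 1.25 CPM.

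Olfactory receptor genes were raised in that library too. Their 1198 genes summed to 112 CPM in spleen WT 02, to 129 CPM in blood KO 02, 144 CPM in blood WT 01 and 100.2 CPM in spleen WT 04, and to 6.52 to 11.6 CPM in the other 8 libraries. Il13, a cytokine of basophils and lymphocytes, had 6, 0 and 1 counts in the globin-rich KO libraries and 9, 9 and 1 counts in the globin-rich WT libraries, against 2 counts in all globin-poor libraries together. The part of such scattered counts in the Epx, Ms4a2 and Mcpt8 values was not tested.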

How the results depend on the processing

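Counts were few for Fcer1a, Prg2, Epx, Mcpt8, Cpa3 and Ms4a2 in globin-rich libraries, where 1 count equals 0.172 to 0.244 CPM. Siglecf counts were few in the globin-poor libraries, although these were deeper. Single values from such counts are imprecise. None of the 10 genes (the members) was called under any alternative except Hdc without blood WT 01, so that members called ranged from 0 to 1 over the fits that leave out a library, for genotype and for label in globin-rich libraries. Same-numbered KO and WT libraries of a label had correlations of -0.297 (03) and 0.662 (04) in blood and 0.475 (01) and -0.525 (04) in spleen. Library kind was not taken off first. The positive values came from libraries of the same kind and the negative ones from libraries of different kinds. These correlations therefore cannot say whether libraries are paired. A replicate block called 50 genes in globin-rich libraries and 0 for blood, spleen, globin-poor and the interaction, none of them a member.

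Genes called by genotype in globin-rich libraries numbered 84 with no filter, 11 by DESeq2 and 0 to 397 without each library, and in globin-poor libraries 4 with no filter and 9 by DESeq2. Genes called by label numbered 384 with no filter, 221 by DESeq2 and 0 to 272 without each library in globin-rich libraries. In globin-poor libraries they numbered 9 with TMM without globin, 1391 with no filter, 2840 by DESeq2, 12 without the genotype term and 1 to 2349 without each library. The label-matching blood libraries alone, a choice made after seeing the data, gave 4 genes called by genotype.

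These values changed sign, and the cause was not tested. Il5ra in blood stood at -0.077 with library kind as a term. The median of the members was -0.29 with no filter and -0.79 with the block for genotype in globin-rich libraries. There the block gave 0.68 for Il5ra and -1.53 for Hdc. For the interaction the median was 0.50 with the kind term and 0.73 with the block. Without each library in turn, the median ranged between -1.21 and 0.67 in spleen (above 0 without WT 01, KO 01 or KO 04), between -0.43 and 0.53 for genotype in globin-rich libraries (below 0 without blood KO 02, spleen WT 02, spleen WT 04 or spleen KO 03), between -0.69 and 0.35 for label in globin-poor libraries (above 0 without blood KO 04) and between -0.88 and 0.19 for the interaction (above 0 without blood WT 03, WT 04 or KO 02). For genotype in globin-rich libraries Il5ra ranged between -0.95 and 0.28 (above 0 without spleen KO 03) and Hdc between -1.06 and 1.64 (below 0 without spleen WT 04 or spleen KO 03). Ms4a2 by label in globin-poor libraries ranged between -2.47 and 0.20 (above 0 without blood KO 04). Mean Il5ra in globin-rich libraries was 5.63 CPM with globin in the total, and with TMM scaling 2 members were higher and 1 lower without overlap in globin-rich libraries.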

Other observations

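Among the other basophil genes, Cd200r3, an activating receptor of basophils and mast cells, was the only 1 of 12 higher under the blood label without overlap in globin-rich libraries, and Gata2, Prss34 and Slc18a2 were lower, where 6.74% of all genes were higher and 3.29% lower. Cd200r3 had 16, 7 and 5 counts in blood KO 02, blood KO 03 and blood WT 01 (2.86, 1.31 and 0.858 CPM), and 1, 1 and 2 counts in spleen KO 03, spleen WT 02 and spleen WT 04 (0.183, 0.218 and 0.489 CPM). Gata2, a transcription factor of these lineages and of platelet precursors, had 9.12, 7.14 and 10.1 CPM under the blood label and 20.5, 17.0 and 20.5 CPM under the spleen label. The basophil protease gene Prss34 had 0, 0 and 1 counts under the blood label and 2, 2 and 5 counts under the spleen label. Slc18a2, which loads histamine into granules, had 5.72, 3.38 and 5.83 CPM under the blood label and 11.2, 6.53 and 11.0 CPM under the spleen label. For Gata2 the log2 difference was -1.30 ± 0.25 (edgeR adjusted p = 0.116). Platelet markers moved with Gata2 and Slc18a2: their sums were 3096, 2066 and 3119 CPM under the blood label and 5949, 6028 and 6419 CPM under the spleen label, and their part in these values was not tested.

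Among the globin-poor libraries Il1rl1, the interleukin-33 receptor of mast cells, basophils and some lymphocytes, stood at 52.7, 57.8 and 53.4 CPM in blood KO 04, blood WT 03 and blood WT 04, and at 34.4, 17.7 and 5.97 CPM in spleen KO 01, spleen KO 04 and spleen WT 01. Its log2 difference was 2.34 ± 0.60 (edgeR adjusted p = 0.0743), opposite in sign to those of Cpa3 and Tpsb2 in the same libraries.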
